A study of Homo sapiens with 35 samples.

Results

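Immediate early genes and the feedback inhibitors of mitogen-activated protein kinase (MAPK) signalling were measured by RNA sequencing in DU145 cells, a line established from a prostate cancer's metastasis to the brain. The set held 40 genes, chosen by name as the AP-1, EGR, NR4A, IER, DUSP and Sprouty families with related early genes, of 28503 in the table. Knockdown was by short hairpin RNA. The control hairpin targeted luciferase (shLuciferase), and the others targeted ZMYND8 (shZMYND8) and JARID1D (shJARID1D), with 2 libraries of each and no label of a further allele, agent or time. ZMYND8 binds histone tails that carry certain modifications. JARID1D, encoded by KDM5D, is a demethylase of histone H3 at lysine 4. Of 35 samples in the series, the 29 of chromatin and its inputs were not analysed here. A comparison of each knockdown with the control asks how early gene expression differs when that chromatin protein is reduced. The labels name 1 hairpin target per group and no stimulus, and they give medium with 10% fetal bovine serum. The values are thus levels in medium with serum, with no added factor labelled.

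Growth factors, stress and cAMP reach these genes through kinase cascades that end on factors already bound at the promoter, mainly the serum response factor with its ternary complex partners and the cAMP response element binding protein. Immediate early genes need no new protein to be switched on, and many encode transcription factors (FOS, JUN, EGR and NR4A proteins) or short-lived regulators of RNA decay and growth. Extracellular signal-regulated kinase (ERK), a MAPK, also switches on its own inhibitors: DUSP phosphatases strip the activating phosphates from MAPKs, and Sprouty and Spred proteins act further up, between receptor and RAF. In epithelial cancer cells FOSL1, DUSP6, SPRY4, ETV4, ETV5 and PHLDA1 are among the genes widely read as markers of ERK output.

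Promoter sequence was set beside the expression values, since the elements named above are read from it. RefSeq (GRCh38.p14) gave a window from 250 bases before to 50 bases after the start for 31 of the 40 genes, with more than 1 start for 10 of them. Stretches of 7 are printed, each of which holds the core of the cAMP response element. Of these genes, NR4A3, DUSP8, JUND, FOS and JUNB passed the test in a knockdown. MAFF passed in the direct comparison of the knockdowns, and EGR1 passed in none. ATF3 and NR4A1, which also passed in a knockdown, had windows without that core and are not printed. Capitals mark the cAMP response element (TGACGTCA) in DUSP8 and MAFF, and its core TGACG or the reverse complement CGTCA in NR4A3, JUND, FOS, JUNB and EGR1. In FOS and JUNB capitals also mark the TATA box (TATAAA), and in EGR1 the serum response element.
NR4A3: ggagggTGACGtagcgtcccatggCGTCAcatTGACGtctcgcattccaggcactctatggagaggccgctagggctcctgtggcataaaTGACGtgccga
DUSP8: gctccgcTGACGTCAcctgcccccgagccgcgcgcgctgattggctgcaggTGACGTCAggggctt
JUND: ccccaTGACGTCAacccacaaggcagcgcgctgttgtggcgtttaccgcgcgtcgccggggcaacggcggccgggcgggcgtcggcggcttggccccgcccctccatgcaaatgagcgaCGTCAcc
MAFF: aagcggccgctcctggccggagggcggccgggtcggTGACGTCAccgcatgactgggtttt
FOS: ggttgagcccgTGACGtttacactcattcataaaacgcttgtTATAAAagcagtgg
JUNB: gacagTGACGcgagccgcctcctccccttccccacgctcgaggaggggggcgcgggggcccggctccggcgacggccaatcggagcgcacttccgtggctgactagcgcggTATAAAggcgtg
EGR1: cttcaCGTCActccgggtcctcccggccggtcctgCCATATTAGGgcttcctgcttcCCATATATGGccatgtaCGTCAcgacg
The NR4A3 stretch is chr9:99821770-99821870 on the plus strand and holds 4 cores. For DUSP8 the stretch is chr11:1572331-1572396 on the minus strand, with full elements at positions -118 to -111 and -74 to -67, where -1 is the base before the start. JUND is chr19:18281702-18281827 on the minus strand, and its first run of capitals is a full element. MAFF is chr22:38201904-38201964, FOS is chr14:75278753-75278808, JUNB is chr19:12791344-12791466 and EGR1 is chr5:138465339-138465422, all on the plus strand.

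The full cAMP response element TGACGTCA, searched on both strands, lay in the windows of 5 of the 31 genes (DUSP1, DUSP8, JUND, MAFF and ZFP36L1), or 16.1%, and in 2.25% of the 27305 genes with a window. Its core TGACG, which every full element also contains, lay in 22 of 31 (71.0%) and in 28.4% of all genes. The serum response element was found in EGR1, EGR2 and SRF, 3 of 31 (9.68%) against 1.60% of all genes. Of the 11 genes with a window that passed the test in either knockdown, 9 held the core and 0 held the serum response element. The core lay in 13 of the 20 with a window that did not pass, and the serum response element in 3. The AP-1 site TGANTCA lay in FOSL2 and SPRED2 only among the 31, or 6.45% against 9.37% of all genes. These matches describe letters in a window and were not tested against the knockdowns. An element further than 250 bases before the start, or with inexact letters, would be missed. NR4A2, DUSP4 and DUSP5 passed in shZMYND8 and had no window to search.

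The deposited estimated fragment counts of the 6 libraries summed to 22925611 to 25001300. With the scaling that these counts carry undone, and 60 genes marked as not quantified left out, the totals ran from 19919824 to 26793969 fragments. No member was marked as unquantified. The 2 targets follow the labels, with ZMYND8 at 35.5 and 33.2 CPM (counts of a gene per fixed total of library counts) in the shZMYND8 libraries against 52.7 to 69.7 in the other 4, and KDM5D at 19.6 and 17.9 CPM in the shJARID1D libraries against 55.5 to 61.0. KRT8, KRT18, KRT19, EPCAM and CDH1, which mark epithelial cells, were present in every library, while the prostate luminal genes KLK2 and FOLH1 and the T cell gene CD3E were at 0 in all. Of the leukocyte markers, PTPRC and LYZ stayed at or under 0.0857 CPM, while CD14 was at 1.03 to 2.44 CPM in every library and highest in shJARID1D (0.92 ± 0.32 on the log2 scale, edgeR adjusted p = 0.123). Fibroblast markers were at or under 4.46 CPM, with COL1A1 higher in shZMYND8 (1.65 ± 0.42, edgeR adjusted p = 0.026). The epithelial markers moved both ways: in shZMYND8 EPCAM fell 3.20-fold, to 6.90 and 5.84 CPM, KRT19 fell 2.23-fold and CDH1 rose 2.02-fold, from 48.9 and 29.0 to 83.8 and 73.6 CPM, and in shJARID1D KRT8 fell 1.82-fold and KRT18 1.59-fold. The part of these markers' differences in the results was not tested. Whether the 2 libraries of a group are from separate cultures is not in the labels, and p-values then measure only the spread between libraries, which may be technical. Fewer cells with a transcript and less of it per cell cannot be told apart in bulk RNA.

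With ZMYND8 reduced, early genes and MAPK inhibitors rose and none of those tested fell. Here and below a gene passes, rises or falls where edgeR's quasi-likelihood test gives a Benjamini-Hochberg adjusted p under 0.05 over all genes tested, and ± is the standard error of a log2 fold change. NR4A2, NR4A3, ATF3, DUSP8, BTG2, NR4A1, DUSP4, SPRY4, DUSP5, RHOB and FOSL2 rose, by 4.44-fold for NR4A2 down to 1.44-fold for FOSL2. They were 11 of the 39 members tested (28.2%), and 16.2% of all 15867 genes passed in this comparison (8.89% higher and 7.34% lower). By edgeR 0 members fell. At an unadjusted p under 0.05, 19 were higher and 0 lower, and DESeq2 called 15 higher and 0 lower. The median log2 fold change was 0.32 over the members and -0.01 over all genes tested. In 26 of 39 members the shZMYND8 libraries did not overlap the control libraries (23 higher and 3 lower), which held for 57.8% of all genes. Without shZMYND8 replicate 1 the count was 5, and without shZMYND8 replicate 2 it was 7. The calls of NR4A1 and RHOB were lost without shZMYND8 replicate 1 (edgeR adjusted p = 0.0662 and 0.0626). ATF3, NR4A2, NR4A3 and DUSP4 passed under all alternatives tried.

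With JARID1D reduced, 7 members rose, among them FOS and its partners JUNB and JUND. BTG2 (2.08-fold), RHOB (2.06-fold), FOS (1.88-fold), ATF3 (1.83-fold), NR4A1 (1.76-fold), JUND (1.62-fold) and JUNB (1.58-fold) passed. These were 7 of 39 members (17.9%), and 5.75% of all genes tested passed (2.96% higher and 2.79% lower). Of those calls 51.4% were higher, and 70.7% with library totals as the only scaling. By edgeR 0 members fell, with FOSL1 and PHLDA1 lower at an unadjusted p under 0.05 beside 11 that were higher. DESeq2 called 8 higher and those 2 lower. The median log2 fold change was 0.19 for the members and 0.00 for all genes. The shJARID1D libraries lay apart from the control libraries in 21 members (19 higher and 2 lower), and in 51.9% of all genes. Without shJARID1D replicate 1 or without shJARID1D replicate 2, edgeR called 0 members (9 and 14 at an unadjusted p under 0.05). Over all genes those fits made 16 and 22 calls, so few genes of any kind passed there. The log2 fold changes of the 7 members in them ran from 0.46 to 1.27, with RHOB at 1.04 and 1.06. With no filter on low counts the count was 2. It also moved without either shZMYND8 library, and without shLuciferase replicate 1, where members were called in both directions. The shZMYND8 libraries enter this comparison through the filter, the scaling and the estimate of the spread, and not through the means compared.

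Both knockdowns were set against the same 2 control libraries, so a control that is low for a gene raises both values. The direct comparison of shZMYND8 with shJARID1D does not use the control means. It placed 8 members higher in shZMYND8 (DUSP2, NR4A2, NR4A3, ETV4, DUSP5, MAFF, FOSL2 and ZFP36L1) and 1, FOS, lower. That is 9 of 39 (23.1%) beside 15.7% of all genes tested (8.67% higher and 7.02% lower, or 55.3% of the calls higher, and 45.0% with library totals as the only scaling). DESeq2 called 9 members higher and 1 lower. The median was 0.15, against 0.00 over all genes, and in 27 members the knockdowns did not overlap (65.4% of all genes). NR4A2 alone passed the direct comparison under every alternative tried. Leaving out any 1 of the 4 knockdown libraries reduced the count to 2, and leaving out either control library, or fitting only the groups compared, gave 17.

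**Figure D1:**
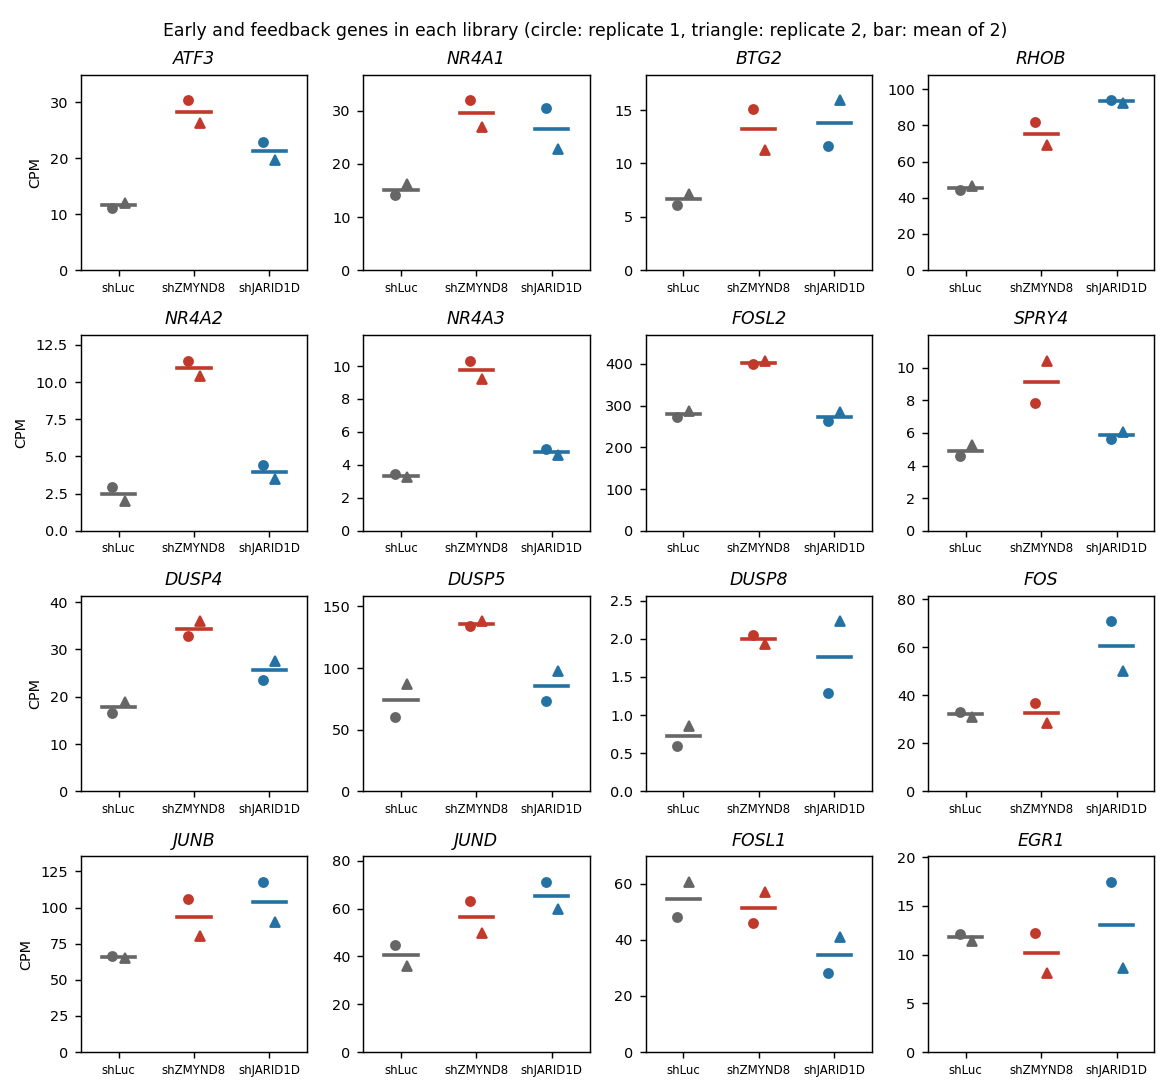
CPM in each library for 16 members, with shLuciferase in grey, shZMYND8 in red and shJARID1D in blue, circles for replicate 1, triangles for replicate 2, and bars for the mean of 2; each panel has its own axis from 0. NR4A2 and NR4A3 are highest in both shZMYND8 libraries, FOS in both shJARID1D libraries, RHOB is above the control in all 4 knockdown libraries, and EGR1 overlaps between groups.

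The AP-1 factors split by subunit. FOS, the classical early partner of JUN proteins, was at 33.2 and 31.0 CPM in the control libraries, 36.7 and 28.5 in shZMYND8, and 70.8 and 50.1 in shJARID1D. Both shJARID1D libraries stood above the other 4, while shZMYND8 straddled the control. The log2 fold change was 0.91 ± 0.18 (standard error of the fit) in shJARID1D (edgeR adjusted p = 0.0235) and 0.02 ± 0.18 in shZMYND8 (edgeR adjusted p = 0.949), and the direct difference was -0.89 ± 0.18 (edgeR adjusted p = 0.0115). That difference was lost without shZMYND8 replicate 2 (-0.72, edgeR adjusted p = 0.118) and without shJARID1D replicate 1 (-0.61, 0.104).

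FOSL2, a FOS relative with a more lasting expression, showed the reverse arrangement. It was at 273 and 287 CPM in the control, 399 and 408 CPM in shZMYND8, and 263 and 284 CPM in shJARID1D. Both shZMYND8 libraries lay above all others, and shJARID1D overlapped the control. The shZMYND8 log2 fold change was 0.53 ± 0.11 (edgeR adjusted p = 0.0124) and the direct difference 0.56 ± 0.11 (0.0111). Without shZMYND8 replicate 1 or 2 the first p was 0.0896 or 0.0938. The remaining FOS relatives did not pass in any comparison. FOSL1, a FOS relative that is stabilised by ERK, gave 48.3 and 60.6 CPM in the control, 46.0 and 57.0 in shZMYND8, and 28.2 and 41.1 in shJARID1D. Both shJARID1D libraries were below the control, with a log2 fold change of -0.65 ± 0.19 (edgeR adjusted p = 0.0789; 0.0163 by DESeq2). FOSB was at 4.81 and 4.80, 4.50 and 4.21, and 6.51 and 5.19 CPM in control, shZMYND8 and shJARID1D, with edgeR adjusted p-values of 0.693 and 0.443.

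JUN itself, the main partner of FOS proteins, lay at 112 and 134 CPM in the control, 116 and 118 CPM in shZMYND8, and 124 and 121 CPM in shJARID1D. Both knockdowns overlapped the control, the shZMYND8 libraries lay just below the shJARID1D libraries, and the 95% interval of the shZMYND8 log2 fold change ran from -0.34 to 0.20. JUNB, a weaker activator of the family, had 66.5 and 64.9 CPM in the control, 106 and 80.2 in shZMYND8, and 118 and 90.1 in shJARID1D. JUND, the most constantly expressed JUN gene, had 44.9 and 35.9, 63.2 and 49.8, and 71.1 and 59.7 CPM in the same order. Every knockdown library of JUNB and JUND stood above both control libraries. In shJARID1D the log2 fold changes were 0.66 ± 0.17 for JUNB (edgeR adjusted p = 0.0488) and 0.69 ± 0.16 for JUND (0.0403). In shZMYND8 they were 0.50 ± 0.17 (0.0677) and 0.48 ± 0.16 (0.0717), and the direct differences of -0.16 ± 0.16 and -0.21 ± 0.16 did not pass. Both shJARID1D calls were lost without either shZMYND8 library, without shLuciferase replicate 2 and without either shJARID1D library (edgeR adjusted p from 0.0576 to 0.338). They were also lost with every library kept, when only the groups compared were fitted (0.0558 for JUNB and 0.0547 for JUND) and with no filter on low counts (0.115 and 0.0996). The JUNB call ended as well with relative log expression scaling (0.0502) and with unquantified genes kept (0.058).

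Among the basic leucine zipper partners of AP-1, ATF3 rose in both knockdowns. ATF3, a stress-induced factor that often represses, was at 11.1 and 12 CPM in the control, 30.4 and 26.3 in shZMYND8, and 22.8 and 19.7 in shJARID1D. The groups formed 3 steps without overlap. The log2 fold changes were 1.29 ± 0.14 in shZMYND8 (edgeR adjusted p = 0.00076) and 0.88 ± 0.15 in shJARID1D (0.0148), and the direct difference was 0.42 ± 0.14 (0.0714). MAFF, a small Maf protein without an activation domain, had 20.4 and 30.1 CPM in the control, 36.0 and 37.2 in shZMYND8, and 22.8 and 25.9 in shJARID1D. Its shZMYND8 libraries were the highest, and the direct difference passed at 0.59 ± 0.18 (edgeR adjusted p = 0.0488), though not with library totals as the only scaling (0.0581). Against the control MAFF gave 0.54 ± 0.18 in shZMYND8 (edgeR adjusted p = 0.0661).

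The EGR zinc finger factors, which are among the fastest genes to respond to ERK, did not pass in any comparison. EGR1 was at 12.1 and 11.4 CPM in the control, 12.2 and 8.16 in shZMYND8, and 17.4 and 8.66 in shJARID1D. One shJARID1D library lay above and the other below both control libraries, a spread of 1.00 on the log2 scale between replicates and the widest of the members tested in that group. Its log2 fold changes were -0.21 ± 0.30 and 0.15 ± 0.30 (edgeR adjusted p = 0.687 and 0.801). EGR2 rested on 3 to 19 fragments per library, at 0.511 and 0.129 CPM in the control, 0.557 and 0.429 in shZMYND8, and 0.814 and 0.729 in shJARID1D. Both shJARID1D libraries were the highest, with a log2 fold change of 1.25 ± 0.59 (edgeR adjusted p = 0.235). EGR3 had too few counts to test. Its recovered fragments were 1 and 1 in the control, 14 and 6 in shZMYND8, and 2 and 3 in shJARID1D. The summed ratio of shZMYND8 to control was 9.07 with a 95% counting interval of 2.20 to 80.0, and 3.24 (1.18 to 11.1) to shJARID1D. These intervals cover counting error only and not the spread between libraries.

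The NR4A genes encode orphan nuclear receptors that are controlled mainly by how much of them is made. All 3 rose in shZMYND8, where 16.2% of all genes passed. NR4A2 had 2.94 and 1.97 CPM in the control, 11.4 and 10.4 in shZMYND8, and 4.41 and 3.47 in shJARID1D. Neither knockdown overlapped the control or the other knockdown. The log2 fold change of NR4A2 in shZMYND8, 2.15 ± 0.24 (edgeR adjusted p = 0.000755), was the largest of any member tested in either knockdown, and the direct difference was 1.47 ± 0.23 (0.00375). In shJARID1D it was 0.68 ± 0.25 (edgeR adjusted p = 0.136). NR4A3 followed the same order, at 3.45 and 3.26 CPM in the control, 10.3 and 9.23 in shZMYND8, and 4.97 and 4.59 in shJARID1D. Its shZMYND8 libraries averaged 2.91-fold the control, with a log2 fold change of 1.54 ± 0.19 (edgeR adjusted p = 0.00108) and a direct difference of 1.03 ± 0.18 (0.00706). The direct difference of NR4A3 was lost without shZMYND8 replicate 1 (edgeR adjusted p = 0.0723) and without shJARID1D replicate 2 (0.0651). NR4A1 passed in both knockdowns, at 14.1 and 16.2 CPM in the control, 32.0 and 27 in shZMYND8, and 30.5 and 22.8 in shJARID1D. All 4 knockdown libraries exceeded the control, and the knockdowns overlapped each other. The log2 fold changes of NR4A1 were 0.96 ± 0.17 (edgeR adjusted p = 0.00539) and 0.81 ± 0.17 (0.0276), and the direct difference was 0.15 with a 95% interval from -0.22 to 0.52. The promoter stretch of NR4A3 printed above carries 4 cores of the cAMP response element, and no window was listed for NR4A2.

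**Figure D2:**
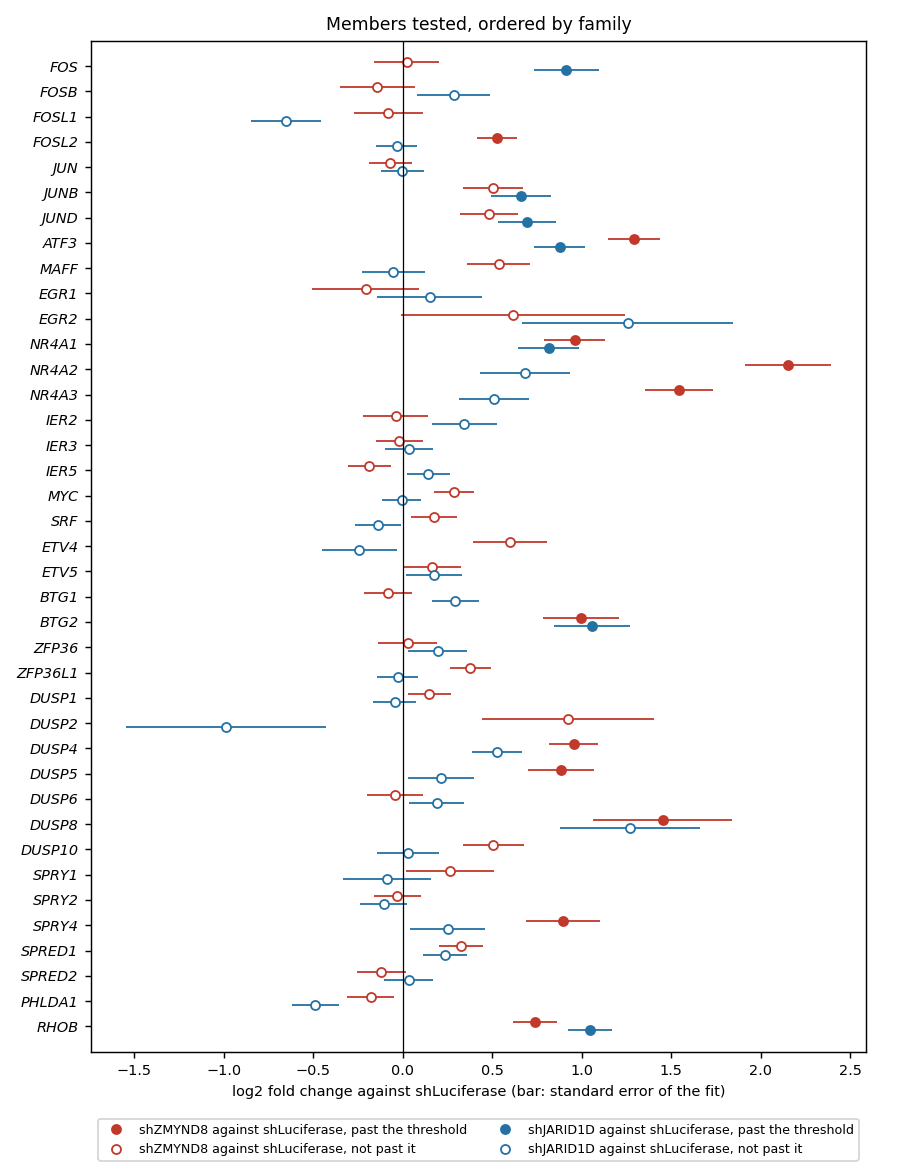
Log2 fold change against shLuciferase for the 39 members tested, ordered by family, with shZMYND8 in red and shJARID1D in blue, bars for the standard error of the fit, and filled points past the threshold. The filled points lie to the right of 0 in both knockdowns, 11 in red and 7 in blue, and FOS and FOSL2 are filled in different colours.

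The IER genes, small early regulators of growth and survival, did not pass in any comparison, with log2 fold changes from -0.19 (IER5 in shZMYND8) to 0.34 (IER2 in shJARID1D). IER2 was at 50.5 and 48.4 CPM in the control and 69.8 and 55.6 CPM in shJARID1D, above it without passing (edgeR adjusted p = 0.29). IER3 overlapped in all comparisons, at 148 to 184 CPM over the 6 libraries. Among the remaining transcription factors MYC was at 81.8 and 87.7 CPM in the control, 105 and 102 CPM in shZMYND8, and 83.4 and 85.3 CPM in shJARID1D. MYC, a driver of growth genes, was thus highest in shZMYND8 with a log2 fold change of 0.29 ± 0.11 (edgeR adjusted p = 0.106). SRF, the serum response factor itself, stayed within 52.4 to 70.0 CPM.

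ETV4 and ETV5 are factors of the ETS family that follow ERK activity. ETV4 had 10.0 and 16.0 CPM in the control, 18.3 and 21.1 in shZMYND8, and 10.6 and 11.4 in shJARID1D. Both shZMYND8 libraries were the highest, and the direct difference was 0.84 ± 0.21 (edgeR adjusted p = 0.0249), against 0.60 ± 0.21 from the control (0.076). Leaving out any 1 of the 4 knockdown libraries ended the direct call of ETV4, with edgeR adjusted p-values from 0.0858 to 0.168. ETV5 overlapped in all 3 comparisons, with 81.9 to 115 CPM over the libraries.

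Of the 4 genes that act in RNA decay or against proliferation, BTG2 alone rose, in both knockdowns. That is 25% in each, beside 16.2% of all genes in shZMYND8 and 5.75% in shJARID1D. BTG2, a p53 target that recruits the deadenylase complex to messenger RNA, was at 6.09 and 7.15 CPM in the control, 15.1 and 11.3 in shZMYND8, and 11.6 and 15.9 in shJARID1D. All knockdown libraries lay above the control, and the knockdowns overlapped. The log2 fold changes were 1.00 ± 0.21 (edgeR adjusted p = 0.0124) and 1.06 ± 0.21 (0.0251), and the direct difference of -0.06 had a 95% interval from -0.52 to 0.40. The shZMYND8 call of BTG2 was lost without shZMYND8 replicate 1 (0.77, edgeR adjusted p = 0.13). ZFP36L1, which binds AU-rich elements and speeds decay, had 76.3 and 67.6 CPM in the control, 93.5 and 93.3 in shZMYND8, and 68.6 and 72.3 in shJARID1D. The shZMYND8 libraries were the highest, with a direct difference of 0.41 ± 0.11 (edgeR adjusted p = 0.0399) and 0.38 ± 0.11 against the control (0.0507). The direct call of ZFP36L1 ended with library totals as the only scaling (edgeR adjusted p = 0.0642) and with no filter on low counts (0.0709). It also ended without any 1 knockdown library, where the difference ran from 0.37 to 0.44. BTG1, at 53.1 to 74.3 CPM, and ZFP36, at 8.57 to 10.7 CPM, did not pass.

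The DUSP phosphatases, which end MAPK signals, rose in part in shZMYND8, where 3 of the 7 passed (42.9%, beside 16.2% of all genes). By edgeR 0 of 7 passed in shJARID1D (DUSP4 by DESeq2), where 5.75% of all genes passed. DUSP4, a nuclear phosphatase of ERK and other MAPKs, had 16.6 and 18.9 CPM in the control, 32.9 and 35.9 in shZMYND8, and 23.5 and 27.6 in shJARID1D. Again the groups formed 3 steps without overlap. The log2 fold change was 0.95 ± 0.14 in shZMYND8 (edgeR adjusted p = 0.00222) and 0.53 ± 0.14 in shJARID1D (0.0571 by edgeR and 0.0385 by DESeq2). DUSP5, a nuclear phosphatase specific to ERK, had 60.6 and 87.1 CPM in the control, 134 and 138 CPM in shZMYND8, and 73.5 and 97.8 CPM in shJARID1D. Both shZMYND8 libraries lay far above the others, with a log2 fold change of 0.88 ± 0.18 (edgeR adjusted p = 0.0113) and a direct difference of 0.67 ± 0.18 (0.0367). Without shZMYND8 replicate 1 or 2 the DUSP5 p-value was 0.0738 or 0.0756.

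DUSP8, which acts on JNK and p38, was scarce at 0.596 and 0.857 CPM in the control, 2.06 and 1.93 in shZMYND8, and 1.29 and 2.23 in shJARID1D. It rested on 13 to 52 fragments per library, and all knockdown libraries exceeded the control. The log2 fold change was 1.45 ± 0.39 in shZMYND8 (edgeR adjusted p = 0.0325) and 1.27 ± 0.39 in shJARID1D (0.0886). The shZMYND8 call of DUSP8 ended without shLuciferase replicate 1, without either shZMYND8 library and with no filter (edgeR adjusted p from 0.0561 to 0.167). Its promoter holds 2 full cAMP response elements. DUSP2, a nuclear phosphatase of immune cells, had 0.511 and 1.11 CPM in the control, 1.80 and 1.29 in shZMYND8, and 0.257 and 0.557 in shJARID1D, from 6 to 46 fragments. The shZMYND8 libraries were the highest, and the direct difference was 1.91 ± 0.53 with a 95% interval from 0.74 to 3.08 (edgeR adjusted p = 0.0366). Leaving out any 1 of the 4 knockdown libraries ended that call (edgeR adjusted p from 0.0774 to 0.214).

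The other 3 phosphatases did not pass. DUSP1, the first of the family to be induced by stress, was at 81.3 and 95.1 CPM in the control, 96.3 and 99.1 in shZMYND8, and 82.0 and 88.9 in shJARID1D. DUSP6, the cytoplasmic ERK phosphatase, was at 28.6 and 38, 34.6 and 30.1, and 36.2 and 39.8 CPM in the same order. DUSP6 overlapped the control in both knockdowns, with a 95% interval from -0.39 to 0.31 in shZMYND8 and from -0.16 to 0.54 in shJARID1D. DUSP10, which prefers JNK and p38, was at 6.47 and 6.73 CPM in the control, 9.64 and 9.10 in shZMYND8, and 7.20 and 6.26 in shJARID1D, with a log2 fold change of 0.51 ± 0.17 in shZMYND8 (edgeR adjusted p = 0.0742).

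Of the 5 Sprouty and Spred inhibitors, SPRY4 alone passed, in shZMYND8 (20%, near the 16.2% of all genes). SPRY4, which blocks RAS activation below receptors, had 4.56 and 5.27 CPM in the control, 7.84 and 10.4 in shZMYND8, and 5.61 and 6.09 in shJARID1D. The shZMYND8 libraries stood above all others, with a log2 fold change of 0.89 ± 0.21 (edgeR adjusted p = 0.0168) and a direct difference of 0.64 ± 0.20 (0.0584). Without shZMYND8 replicate 2 the SPRY4 value was 0.67 (edgeR adjusted p = 0.16). SPRY2, a close relative, was at 19.3 and 21.1 CPM in the control, 20.1 and 19.5 in shZMYND8, and 17.7 and 19.8 in shJARID1D. SPRY1 had 3.19 and 2.91, 3.51 and 3.82, and 3.26 and 2.49 CPM in the same order. SPRY2 overlapped in every comparison, with a 95% interval from -0.33 to 0.26 in shZMYND8. SPRED1, which brings neurofibromin to RAS, was at 70.2 and 63.8 CPM in the control, 81.9 and 85.7 in shZMYND8, and 72.4 and 85.3 in shJARID1D, with 0.32 ± 0.12 in shZMYND8 (edgeR adjusted p = 0.106). SPRED2 was at 36.3 and 33.8, 30.6 and 33.9, and 32.3 and 39.5 CPM, and overlapped throughout.

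RHOB, an early-response small GTPase of endosomes, rose in both knockdowns. It had 44.0 and 46.4 CPM in the control, 81.7 and 69.3 in shZMYND8, and 94.0 and 92.6 in shJARID1D. Every knockdown library exceeded the control, and shJARID1D was the highest. The log2 fold changes of RHOB were 0.74 ± 0.12 (edgeR adjusted p = 0.00387) and 1.05 ± 0.12 (0.00654), the smallest adjusted p of a member in shJARID1D, and the direct difference was -0.31 ± 0.12 (0.11). PHLDA1, an ERK-responsive regulator of survival, was at 252 and 285 CPM in the control, 235 and 239 CPM in shZMYND8, and 173 and 209 CPM in shJARID1D. Both shJARID1D libraries were the lowest, with a log2 fold change of -0.49 ± 0.13 (edgeR adjusted p = 0.0589; 0.0072 by DESeq2).

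The 6 genes named above as markers of ERK output, which were not a list set in the design, gave 1 call in the knockdowns. Of the feedback inhibitors outside these 6, DUSP4, DUSP5 and DUSP8 passed in shZMYND8. DUSP1, DUSP2, DUSP10, SPRY1, SPRY2, SPRED1 and SPRED2 did not. In shZMYND8, where 16.2% of all genes passed, SPRY4 passed, while FOSL1, DUSP6, ETV4, ETV5 and PHLDA1 did not. Those that did not pass were at -0.08, -0.04, 0.60, 0.17 and -0.18 on the log2 scale, in that order. In shJARID1D, where 5.75% of all genes passed, by edgeR 0 of the 6 passed. FOSL1 and PHLDA1 were lower there at an unadjusted p under 0.05 and by DESeq2. With 6 genes, these counts are too few to set apart from those shares.

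**Figure D3:**
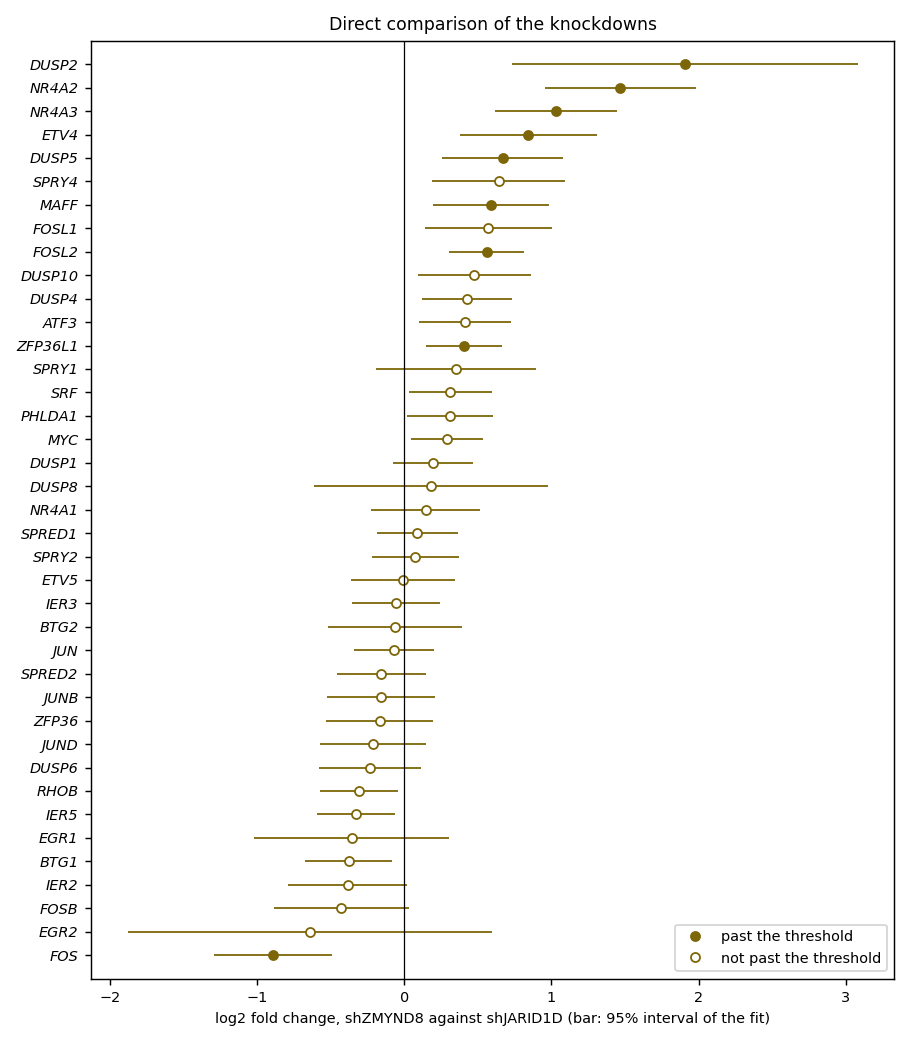
Log2 fold change of shZMYND8 against shJARID1D for the 39 members tested, sorted by value, with 95% intervals of the fit as bars and filled points past the threshold. DUSP2 lies highest with the longest filled bar, NR4A2 and NR4A3 follow, and FOS is the lowest and the sole filled point left of 0.

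The cascade that feeds these genes was read from lists of related genes chosen with earlier results of these data known. Their counts are given beside the share of all genes tested that passed, which was 16.2% in shZMYND8, 5.75% in shJARID1D and 15.7% in the direct comparison. Of 29 genes of the ERK cascade, from receptor and adaptor to kinase, 1 rose and 3 fell in shZMYND8 (13.8%, near the 16.2% of all genes), with a median of -0.05. EGFR, the receptor of epidermal growth factor, rose by 0.63 ± 0.12 (edgeR adjusted p = 0.009). MAP2K1, the kinase that activates ERK, changed by -0.97 ± 0.12 (0.00111), from 114 and 119 CPM to 61.5 and 57.9 CPM. The RAS-RAF scaffold SHOC2 (-0.62 ± 0.14) and the ERK-activated kinase RPS6KA2 (-0.55 ± 0.11) were also lower. In shJARID1D 2 of the 29 (6.9%, near the 5.75% of all genes) fell by edgeR and 0 rose (6 in either direction at an unadjusted p under 0.05, and 3 lower with 0 higher by DESeq2), with a median of -0.09. They were NRAS, at -1.0 ± 0.13 (edgeR adjusted p = 0.00758), and RPS6KA2, at -0.45 ± 0.11 (0.0484). EGFR in shJARID1D was at -0.46 ± 0.12 (edgeR adjusted p = 0.0601), and the direct difference of EGFR between the knockdowns was 1.09 ± 0.13 (0.00101). Without shZMYND8 replicate 1 or 2 the shZMYND8 count of this list was 2 or 1. The shJARID1D count was 1 without shLuciferase replicate 2 or without either shZMYND8 library, and without either shJARID1D library edgeR called 0 in shJARID1D (4 and 3 at an unadjusted p under 0.05).

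In the JNK, p38 and ERK5 cascade 2 of 23 genes rose and 5 fell in shZMYND8 (30.4%, beside 16.2% of all genes, of which 7.34% were lower), with a median of -0.18. The p38 kinases MAPK13 (-1.21 ± 0.14, edgeR adjusted p = 0.000761) and MAPK14 (-0.62 ± 0.11, 0.00556) led the falls. MAP2K4, an activator of JNK, was the single call in shJARID1D (4.35% of the list, beside 5.75%), at -0.51 ± 0.11 (edgeR adjusted p = 0.0326). It was lost without any 1 knockdown library, while 5 genes of the list passed without shLuciferase replicate 1 and 2 without shLuciferase replicate 2. The list's shZMYND8 count was 1 without shZMYND8 replicate 1, 2 without replicate 2, and 3 or 4 without shJARID1D replicate 1 or 2. Factors that switch on early genes, such as the cofactors of SRF and of the cAMP response element binding protein, gave 2 rises of 20 in shZMYND8 (10%, beside 16.2% of all genes and 8.89% higher) with a median of 0.08. These were MKL1, an SRF cofactor, at 0.76 ± 0.14 (edgeR adjusted p = 0.0069), and CRTC3, a cofactor of the cAMP response element binding protein, at 0.61 ± 0.15 (0.0252). The count was 0 by edgeR without shZMYND8 replicate 1 (4 at an unadjusted p under 0.05), 1 without shZMYND8 replicate 2, and 5 or 4 without shLuciferase replicate 1 or 2. In shJARID1D edgeR and DESeq2 each called 0 of these 20, with 2 at an unadjusted p under 0.05.

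Early genes outside the 40 were followed with a list of 36, all tested. Of these 16 rose (44.4%, beside 8.89% of all genes higher and 16.2% called) and 0 fell by edgeR in shZMYND8 (22 in either direction at an unadjusted p under 0.05, and 16 higher with 0 lower by DESeq2), with a median of 0.45. SIK1, a kinase that restrains cAMP signalling, rose by 1.63 ± 0.14 (edgeR adjusted p = 0.000425). KLF4 and KLF2, zinc finger factors, and IL6, a cytokine, rose by 2.08 ± 0.20, 2.19 ± 0.23 and 2.09 ± 0.24. In shJARID1D 8 of the 36 rose (22.2%, beside 2.96% of all genes higher and 5.75% called) and 0 fell by edgeR (22 in either direction at an unadjusted p under 0.05, and 11 higher with 0 lower by DESeq2), with a median of 0.45. CSRNP1 (1.46 ± 0.19), KLF4 (1.02 ± 0.20), SGK1 (0.88 ± 0.14) and GEM (0.62 ± 0.13) had the smallest adjusted p-values. The direct comparison gave 11 higher and 3 lower in shZMYND8 (38.9%, beside 15.7% of all genes), the lower ones being SGK1 (-1.30), CSRNP1 (-0.99) and GEM (-0.93). These 14 calls became 7 without shZMYND8 replicate 1 or 2, and 8 without shJARID1D replicate 1 or 2. Without shZMYND8 replicate 1 the shZMYND8 count was 7. Leaving out either shZMYND8 library lowered the shJARID1D count, and leaving out either shJARID1D library all but ended it. Without shLuciferase replicate 1 that count rose, with genes of the list called in both directions.

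Among 13 tested genes for other basic leucine zipper partners 5 rose (38.5%, beside 8.89% of all genes higher) and 0 fell by edgeR in shZMYND8 (6 at an unadjusted p under 0.05, and 6 higher with 0 lower by DESeq2). BATF2 rose by 2.35 ± 0.37, from 1.70 and 1.88 CPM to 12.4 and 5.93 CPM, beside CEBPG (0.63 ± 0.11), BACH1 (0.63 ± 0.14) and the oxidative stress factor NFE2L2 (0.48 ± 0.11). NFE2L2 alone passed in shJARID1D (7.69% of the list, beside 5.75%), also at 0.48 ± 0.11 (edgeR adjusted p = 0.0423), where the list's count was 2 without shLuciferase replicate 1 and by edgeR 0 without either shJARID1D library (3 at an unadjusted p under 0.05 in each). Without shZMYND8 replicate 1 the count in shZMYND8 was 2, and without replicate 2, or without shJARID1D replicate 2, it was 3. Of 26 tested genes for other negative regulators of MAPK signalling or ERK targets, 5 rose and 1 fell in shZMYND8 (23.1%, beside 16.2% of all genes). DUSP16, a phosphatase of JNK, rose in both knockdowns, by 1.38 ± 0.15 (edgeR adjusted p = 0.00067) and 1.13 ± 0.15 (0.00758). LRIG1, which lowers EGFR, rose by 0.73 ± 0.14, DUSP3 by 0.72 ± 0.11, and PEBP1, the RAF inhibitor, was at -0.55 ± 0.12 in shZMYND8. In shJARID1D 2 rose and 1 fell (11.5%, beside 5.75%), with VGF at 1.57 ± 0.38 and the chromatin protein HMGA1 at -0.80 ± 0.19. Each control library weighed on this balance, with 1 higher and 6 lower without shLuciferase replicate 1, and 3 higher and 0 lower without shLuciferase replicate 2. Without any 1 shZMYND8 library the shZMYND8 count was 2, and without any 1 shJARID1D library edgeR called 0 in shJARID1D (6 and 8 at an unadjusted p under 0.05).

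SRF also drives cytoskeletal genes through its cofactor MKL1, and 18 of these were tested. In shJARID1D 5 fell (27.8%, beside 2.79% of all genes lower and 5.75% called) and 0 rose by edgeR (8 in either direction at an unadjusted p under 0.05, and 7 lower with 0 higher by DESeq2), with a median of -0.31. The actin-binding genes TAGLN (-1.21 ± 0.23), TPM4 (-0.66 ± 0.11) and CNN2 (-0.62 ± 0.13) and the myosin MYH9 (-0.92 ± 0.14) led them. In shZMYND8 2 rose and 3 fell (27.8%, beside 16.2%), including the tropomyosins TPM1 (0.82 ± 0.13) and TPM4 (-0.61 ± 0.11), the focal adhesion gene ZYX (0.77 ± 0.17) and FHL2 (-0.57 ± 0.14). TAGLN differed most in the direct comparison, by 1.90 ± 0.23 (edgeR adjusted p = 0.00122). The shJARID1D count was 8 (1 higher and 7 lower) without shLuciferase replicate 1, 3 without either shZMYND8 library or without shLuciferase replicate 2, and 0 by edgeR without shJARID1D replicate 1 or 2 (5 and 8 at an unadjusted p under 0.05). The shZMYND8 count was 1 and 2 without shZMYND8 replicate 1 and 2.

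Of 14 partners of ZFP36 and BTG proteins in RNA decay, 2 fell in shZMYND8 (14.3%, near the 16.2% of all genes) and 0 rose by edgeR (4 in either direction at an unadjusted p under 0.05, and 2 lower with 0 higher by DESeq2). They were the RNA-binding genes ELAVL1 (-0.55) and KHSRP (-0.48), and in shJARID1D TOB2 alone passed (-0.51; 7.14% of the list, beside 5.75%). By edgeR 0 of the list passed in shZMYND8 without shZMYND8 replicate 1 or 2 (3 and 2 at an unadjusted p under 0.05), 1 passed without either shJARID1D library, and the TOB2 call was lost without any 1 knockdown library. Heat shock and handling stress genes, which move when cells are disturbed at harvest, gave 1 rise and 1 fall of 15 in shZMYND8 (DNAJA1 at 0.40 and DNAJB1 at -0.40), or 13.3% beside 16.2% of all genes. Leaving out any 1 of the 4 knockdown libraries ended both calls, and without shLuciferase replicate 1 the count was 1. In shJARID1D HMOX1 alone passed (6.67% beside 5.75%), at 1.03 ± 0.17 (edgeR adjusted p = 0.0139), from 73.2 and 103 CPM to 194 and 167 CPM. The list's shJARID1D count was 2 or 3 without shLuciferase replicate 1 or 2, and by edgeR 0 without shJARID1D replicate 1 or 2 (2 and 5 at an unadjusted p under 0.05). Whether handling at harvest had a part in the early gene levels was not tested.

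The spread between the 2 libraries of a group was also set beside that of all genes. The median absolute log2 difference between replicates was 0.228 over the 39 members in shJARID1D, against 0.152 over all genes tested. It was 0.137 against 0.143 in shZMYND8, and 0.188 against 0.239 in shLuciferase. The widest gap of a member in each group was that of EGR2 in shLuciferase (1.42), EGR1 in shJARID1D (1.0) and EGR1 in shZMYND8 (0.58).

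**Figure D4:**
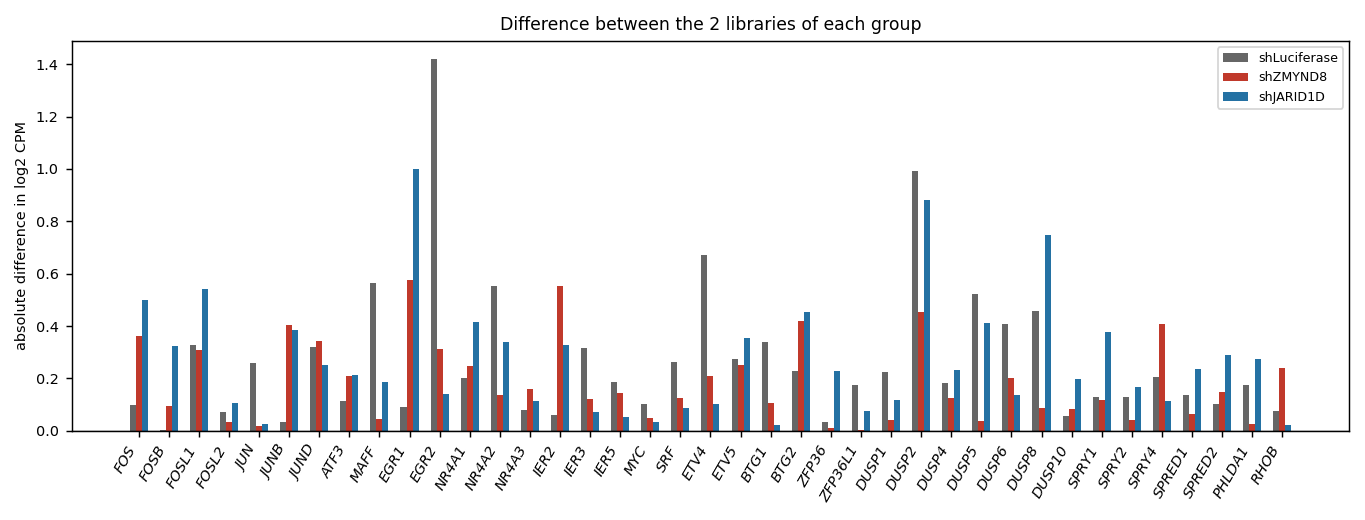
Absolute difference in log2 CPM between the 2 libraries of each group for the 39 members tested, with 1 bar per group (grey shLuciferase, red shZMYND8, blue shJARID1D). The longest bars are those of EGR2 and DUSP2 in shLuciferase and of EGR1 in shJARID1D, and FOSL2 and MYC have short bars in all 3 groups.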

How the data were processed

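RNA sequencing of 6 DU145 libraries (shLuciferase, shZMYND8 and shJARID1D, 2 each, grouped by their labels) was analysed from a gene table of 28503 genes. The deposited values are expected counts, that is, the authors' estimates of fragments per gene. Per the submitters' processing notes, the tools were edgeR 3.12.0, Cuffdiff, Bowtie 1.1.2 and TopHat2 2.0.12 with the build hg19. Annotation and strandedness: not given in the sources used here. Overlapping, antisense and near-identical genes are therefore uncertain. The table's columns for Rac7_KO were taken as shZMYND8, on the assumption that Rac7 stands for RACK7, given in an antibody label as another name of ZMYND8. The deposited counts carry a scaling: 1 fragment is worth 0.881 to 1.16 by library. Divided by this worth, 84.0% to 84.9% of values below 1000 fragments were whole to within 0.05. The 18 variance columns were not used. The status columns served only to leave out 60 genes marked as not quantified, a step the design had not foreseen.

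Counts were rounded, and R 4.3.3 with edgeR 4.0.16 gave the test (the quasi-likelihood F test, trimmed mean of M values, filterByExpr, all 6 libraries in 1 fit, 3 residual and 6.8 prior degrees of freedom, coefficient of variation 12.3%). Benjamini-Hochberg adjustment ran over 15867 genes with a threshold of 0.05, and every adjusted p is of this test unless DESeq2 (1.42.0) is named. CPM used the same factors, 0.966 to 1.06. Without gene lengths, levels were not compared between genes. A library without fragments could hold up to 0.112 to 0.151 CPM (3 fragments, counting error only).

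The members and lists were chosen with earlier results of these data known. Described with every library's value were members past the threshold in any comparison and tested members of the FOS, JUN, EGR, DUSP and Sprouty or Spred families. Others were given by range or by values chosen after they were seen. From each list up to 4 genes per knockdown with the smallest adjusted p were named. EGFR in shJARID1D, the genes of the direct comparison in the lists and the single marker genes were named after their values were seen. Alternatives were other scalings, filters, DESeq2, a fit of the groups compared, a replicate block, unquantified genes kept, the deposited scaling undone, and each library left out. List counts under these were added after the data were seen. Some marker genes of the lists are not reported here. Scripts were tested on simulated data. Figures were drawn with Python 3.11.15 and matplotlib 3.10.9.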

Additional observations from a re-analysis of the deposited data

How the results depend on the processing

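No call of a member reversed under any alternative. Of the settings that keep every library, those not named here left each count of members and of all genes within 1.5 times its reported value. Leaving out 1 library moved the member counts between 5 and 13 in shZMYND8 (all genes 642 to 3222), between 0 and 12 in shJARID1D (all genes 16 to 2145, 0 members being by edgeR with 9 or 14 at an unadjusted p under 0.05), and between 2 and 17 in the direct comparison (all genes 551 to 4191). A lone library left in a group was assumed to vary like the other groups. With no filter on low counts the counts were 2 members and 204 genes in shJARID1D, and 4 members and 1560 genes in the direct comparison. Fitting only the groups compared gave 449 genes in shJARID1D, and 17 members and 4252 genes in the direct comparison. With library totals as the only scaling, the share of all calls that were higher was 70.7% in place of 51.4% in shJARID1D and 45.0% in place of 55.3% in the direct comparison, and members were called in the same direction as reported.

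The labels number the libraries 1 and 2 in each group. Across all genes tested the differences between replicates 2 and 1 correlated at 0.17 (shJARID1D and shLuciferase), 0.0969 (shJARID1D and shZMYND8) and 0.0925 (shLuciferase and shZMYND8). Whether a shared number marks a shared day or batch is not in the labels and was not tested. Replicate 2 lay below replicate 1 in all 3 groups for 11 members (28.2%) and for 17.5% of all genes tested. In both knockdown groups it did so for 16 members (41.0%) and for 27.7% of all genes tested. With the replicate block the counts were 16 members in shZMYND8, 10 members (8 higher and 2 lower) and 2073 genes in shJARID1D, and 15 members (12 higher and 3 lower) and 3785 genes in the direct comparison.

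Each group had 2 libraries, and EGR2, EGR3, DUSP2 and DUSP8 rested on few fragments. The shares of counting error and of spread between libraries were not separated for the members.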
